A study of Rattus norvegicus with 2 samples.

Results

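The S100 genes encode small calcium-binding proteins, and 10 of them (S100a1, S100a3, S100a4, S100a6, S100a8, S100a9, S100a10, S100a11, S100a13 and S100a16) are described here. They were chosen by name, as the listed rat genes whose RefSeq transcript is the target of a gene probe on both arrays. The list was made with earlier results of these data known, so shares of all genes given below are a description and no test. All 10 had a probe, each had 1 probe printed as 2 spots, and all 10 were measured, among 9026 genes measured on both arrays. The RNA came from RMT-1 cells, a cultured rat mammary tumour line (clone E4). One culture was transiently transfected with an siRNA against Pla2g4c, which encodes a cytosolic phospholipase A2, and the other with a negative control siRNA. Each group was 1 one-colour array, so no value has a replicate check and no test across samples was possible. The time after transfection and the number of siRNA sequences are not given in the sources used here. By its title the series is about apoptosis when Pla2g4c is repressed, and the comparison asked which transcripts differed between these 2 cultures.

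S100 proteins pair 2 EF-hand calcium-binding loops in a short chain and mostly work as dimers. When calcium binds, the dimer opens a surface that attaches to other proteins, so S100 proteins carry calcium signals to targets such as annexins and myosin. Several are also released from cells and act on surface receptors, among them the heterodimer of S100a8 and S100a9 (calprotectin), an inflammatory protein of myeloid cells and of stressed epithelia. Most S100a genes lie in a cluster next to the genes of the epidermal differentiation complex.

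Relative to the bulk of the genes, S100a4, S100a6, S100a11 and S100a10 were lower in the Pla2g4c siRNA array, and the other members differed little. The difference, Pla2g4c siRNA minus control on the log2 scale, ranged over the members between -1.27 for S100a4 and 0.22 for S100a3, with a median of -0.29 beside a median of -0.01 over all genes. S100a5, a neighbour of S100a4 that is not among the 10, had the opposite sign, at 1.84. Levels below are multiples of the 75th percentile of the gene spots on the same array, and the ± of a difference is the scanner software's error, an estimate of technical error inside each array. For members with high signal this error was 0.20 whatever the gene, so it does not measure the spread of a gene's own spots. In a bulk culture fewer cells of a type and less RNA per cell cannot be told apart.

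The promoters of S100a4 and of the genes that follow it, S100a5 and S100a6, are shown because these neighbours differed in opposite directions. They are the 250 bases before the annotated start in RefSeq (build GRCr8, plus strand, 5′ to 3′), at chr2:178388279-178388528 for S100a4, chr2:178394871-178395120 for S100a5 and chr2:178398287-178398536 for S100a6. Capitals mark a TATA box (TATAAA) or a GC box (GGGCGG), the binding sequence of Sp1 factors, on either strand.
S100a4: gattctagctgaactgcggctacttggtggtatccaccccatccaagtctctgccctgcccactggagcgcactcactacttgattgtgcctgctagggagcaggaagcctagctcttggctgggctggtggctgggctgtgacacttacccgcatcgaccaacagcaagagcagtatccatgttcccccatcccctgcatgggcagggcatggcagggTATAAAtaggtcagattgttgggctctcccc
S100a5: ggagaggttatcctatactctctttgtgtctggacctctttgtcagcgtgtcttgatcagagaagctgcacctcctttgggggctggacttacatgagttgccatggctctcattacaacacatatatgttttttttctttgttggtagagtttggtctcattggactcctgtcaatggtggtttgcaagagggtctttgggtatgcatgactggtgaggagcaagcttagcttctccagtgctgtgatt
S100a6: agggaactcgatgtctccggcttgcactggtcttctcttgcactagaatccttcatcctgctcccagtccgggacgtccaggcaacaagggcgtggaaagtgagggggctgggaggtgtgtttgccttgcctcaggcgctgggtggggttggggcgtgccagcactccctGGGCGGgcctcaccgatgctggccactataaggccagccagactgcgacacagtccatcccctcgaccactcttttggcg

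The S100a4 window holds a TATA box that begins 31 bases before the start, and the S100a6 window a GC box that begins 80 bases before it. The S100a5 window holds neither. Of the 10 members 7 had a promoter in the table (S100a3, S100a4, S100a6, S100a9, S100a11, S100a13 and S100a16). TATAAA occurred in 2 of these 7, S100a4 and S100a9, and in 12.9% of all 33469 promoters of this length. GGGCGG occurred in 4 of the 7 (S100a3, S100a6, S100a11 and S100a13) and in 30.5% of all promoters. An AP-1 sequence (TGANTCA, 6.34% of promoters) and an NF-kB sequence with free middle bases (1.3%) had no match in the 7 windows or in that of S100a5. An E-box (CANNTG, not in capitals above) occurred in 2 of the 7, S100a9 and S100a11, and in 65.5% of all promoters. The motifs were searched on both strands, and a match is a description of the letters only.

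S100a4, which binds non-muscle myosin and is known as a metastasis-associated protein, had the lowest difference of the members. Its 2 spots gave 26.7 and 27.9 times the 75th percentile in the Pla2g4c siRNA array, against 64.7 and 67.0 times in the control array. Both spots were lower in the Pla2g4c siRNA array, with no overlap between the arrays. The difference was -1.27 ± 0.20, which is 2.41-fold lower, and 1.52% of all measured genes had a lower one. S100a4 was the 1 member at least 2-fold lower, 0 members were at least 2-fold higher, and over all genes 3.05% were at least 2-fold lower and 2.91% at least 2-fold higher. The count of 1 among 10 is too small to set against that background. The size of this difference depended on the scaling, since it was -0.90 after quantile normalization, -0.99 after cyclic loess and -0.72 with scaling to spike-in RNAs, all short of 2-fold and all still lower.

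S100a6 (calcyclin), a partner of annexins and of the calcyclin-binding protein, came next. Its spots gave 101 and 105 times the 75th percentile in the Pla2g4c siRNA array, against 188 and 195 times in the control array, without overlap. The difference was -0.90 ± 0.20, or 1.86-fold lower. It was smaller under other scalings, with -0.34 after quantile normalization, -0.49 after cyclic loess and -0.35 with spike-in scaling.

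S100a11 and S100a10 are annexin partners, S100a11 of annexin A1 and S100a10 (p11) of annexin A2, with which it forms a membrane-bound tetramer. S100a11 gave 26.0 and 26.3 times the 75th percentile in the Pla2g4c siRNA array, against 42.1 and 42.8 times in the control array. S100a10 gave 32.8 and 34.3 times in the Pla2g4c siRNA array, against 50.1 and 50.9 times in the control array. For both genes the spots of the 2 arrays did not overlap and were lower in the Pla2g4c siRNA array. The difference was -0.70 ± 0.20 for S100a11 and -0.59 ± 0.20 for S100a10, 1.63-fold and 1.51-fold lower. Quantile normalization gave -0.38 and -0.23 for the same genes, and spike-in scaling -0.15 and -0.05. The RefSeq table holds 7 further genes or pseudogenes named as copies of S100a11 and 1 of S100a10, so signal from such copies may be included in these probes.

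These 4 were the members at least 1.5-fold lower, 4 of 10 where 10.3% of all genes were, and 0 members were 1.5-fold higher where 8.69% of all genes were. All 4 lay among the 10% of genes with the highest signal, of which 15.2% were at least 1.5-fold lower. They were the 4 members with all spots lower on the Pla2g4c siRNA array before any scaling. That array was the brighter of the 2, with a 75th percentile of 1105 against 852 in the control array. Scaling moves every gene by this 1 constant, which is less than 1.5-fold. A member 1.5-fold lower after scaling is therefore always lower before it, so this is no separate evidence. S100a4, for example, had unscaled signals of 29490 and 30887 in the Pla2g4c siRNA array, against 55065 and 57101 in the control array. In each of the 4 the difference was below 0 under all 10 alternatives. Those that changed the choice of probe, the filter or the flags could not alter it, because each gene has 1 bright probe without flagged spots. Only the other scalings and normexp could move it, and with spike-in scaling S100a10 was close to 0, at -0.05. The count of members 1.5-fold lower was 3 with normexp background correction (S100a4, S100a6 and S100a11), beside 7.36% of all genes. It was 2 in the deposited values (S100a4 and S100a6), beside 6.61% of all genes. It was 1, S100a4, under quantile normalization, cyclic loess and spike-in scaling, beside 9.04%, 8.77% and 2.11% of all genes.

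**Figure D1:**
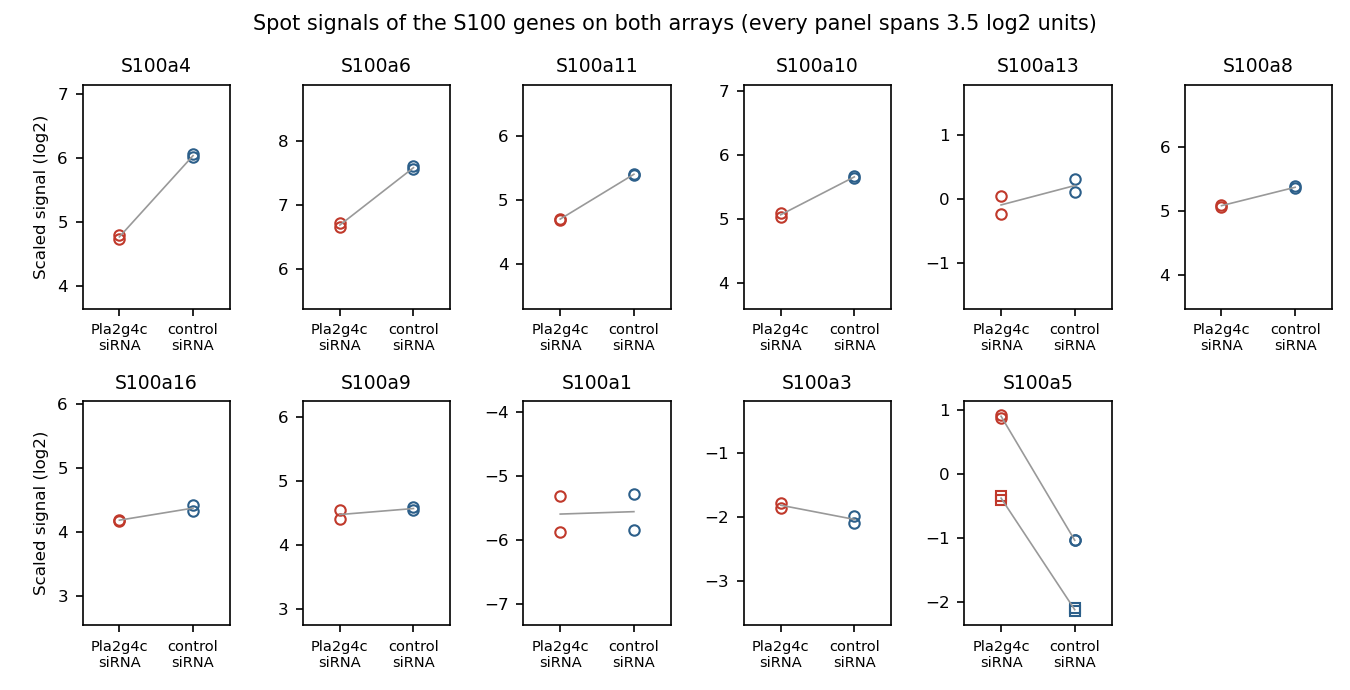
Log2 scaled signal (vertical axis) of each spot in the Pla2g4c siRNA array (red, left) and the control array (blue, right) for the 10 S100 members and S100a5, whose second probe is drawn as squares. Lines join the means of a probe. The spots of the 2 arrays overlap for S100a1 and lie apart for the other 9 members, by most for S100a4 (-1.27), and in the other direction for S100a3 and both probes of S100a5.

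S100a8 and S100a9, the subunits of calprotectin, differed by little. S100a8 gave 33.6 and 34.3 times the 75th percentile in the Pla2g4c siRNA array, against 41.0 and 41.8 times in the control array, and its difference was -0.29 ± 0.20. S100a9 gave 21.4 and 23.4 times in the Pla2g4c siRNA array, against 23.5 and 24.2 times in the control array, and its difference was -0.09 ± 0.20. The sign of both depended on the scaling: S100a8 was 0.07 under quantile normalization and 0.26 with spike-in scaling, and S100a9 was 0.14 under quantile normalization, 0.13 under cyclic loess, 0.04 in the authors' deposited normalized values and 0.45 with spike-in scaling. Before scaling, the spots of both genes were higher on the Pla2g4c siRNA array. Myeloid cells are best known for these 2 proteins. Of the fixed list of 12 myeloid markers 11 had a named probe, and 5 were well above background on each array. Their summed level over all probes was 0.833 times the 75th percentile in the Pla2g4c siRNA array and 1.03 times in the control array. The leukocyte genes Ptprc, Itgam and Itgb2 and the neutrophil genes Csf3r and Elane had no spot well above background on either array. The 5 measured markers were Cd14, Cd68, Csf1r, Cxcr2 and Lyz2, and Cd14 had the highest signal of them on both arrays. Their median difference was -0.25, and its sign depended on the processing. It was 0.29 with spike-in scaling, and 0.01 over 11 markers with no filter on dim probes. By difference, the neutrophil chemokine receptor Cxcr2 was lowest at -0.86 ± 0.22 and the lysozyme Lyz2 highest at 0.60 ± 0.34, with -0.10 under normexp.

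S100a13, which takes part in the release of fibroblast growth factor 1 from cells, gave 0.851 and 1.03 times the 75th percentile in the Pla2g4c siRNA array, against 1.08 and 1.24 times in the control array. The spots approached each other closely without overlap, and the difference was -0.30 ± 0.20, with 0.24 under spike-in scaling. S100a16, a widely expressed member, gave 18.1 and 18.3 times in the Pla2g4c siRNA array, against 20.2 and 21.4 times in the control array. Its difference of -0.19 ± 0.20 was within the software's error, and it was 0.02 under both quantile normalization and cyclic loess and 0.36 with spike-in scaling.

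S100a3, known from the hair cuticle, was the 1 member above 0. It gave 0.277 and 0.292 times the 75th percentile in the Pla2g4c siRNA array, against 0.234 and 0.254 times in the control array. All its spots were higher in the Pla2g4c siRNA array, by 0.22 ± 0.21, and it was above 0 under every alternative that measured it, at 0.13 to 0.77. S100a1, best known as a regulator of calcium handling in heart muscle, was close to background. It gave 0.0170 and 0.0252 times in the Pla2g4c siRNA array, against 0.0175 and 0.0258 times in the control array. Its spots overlapped between the arrays, and the difference of -0.04 ± 0.36 could not be told from 0 at this signal. It fell on both sides of 0 under the alternatives, at -0.36 with normexp background correction and 0.51 with spike-in scaling.

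Across the members 8 had all scaled Pla2g4c siRNA spots below the control spots, 1 had them above and 1 overlapped. Before scaling, 4 members had them all below, 4 all above and 2 overlapped. Of 8839 measured probes with 2 spots, 41.2% lay entirely below after scaling and 38.6% entirely above, so that spots without overlap were common on these arrays. By sign, 9 of 10 members were below 0, where 51% of all genes were. Under quantile normalization and cyclic loess 4 of 10 members were above 0, beside 51.8% and 52.0% of all genes. In the authors' deposited values 3 members were above 0, beside 62.8% of all genes, and with spike-in scaling 6, beside 88.5%. Within a member the differences of the 2 spots lay 0.0023 to 0.092 apart.

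The members' signal bears on these values. By mean signal 7 of the 10 (S100a4, S100a6, S100a8, S100a9, S100a10, S100a11 and S100a16) fell in the top 10% of the measured genes. The median difference of those 902 genes was -0.14, and 90% of them lay between -0.87 and 0.39 (5th and 95th percentiles). In the same group 2.88% were at least 2-fold lower and 15.2% at least 1.5-fold lower. S100a4 and S100a6 were below its 5th percentile, and S100a11 and S100a10 were within the range. The difference between the arrays thus shifted with signal. Less the median of this group, S100a4 was -1.12, S100a6 -0.75, S100a11 -0.56 and S100a10 -0.45. On the same footing S100a8 was -0.14, S100a16 -0.04 and S100a9 0.05. Quantile normalization and cyclic loess both brought the top 10% to a median of 0.06. The part of this shift in the members' values was not tested further. Quantile normalization put the median of the members at -0.11 and cyclic loess at -0.16.

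**Figure D2:**
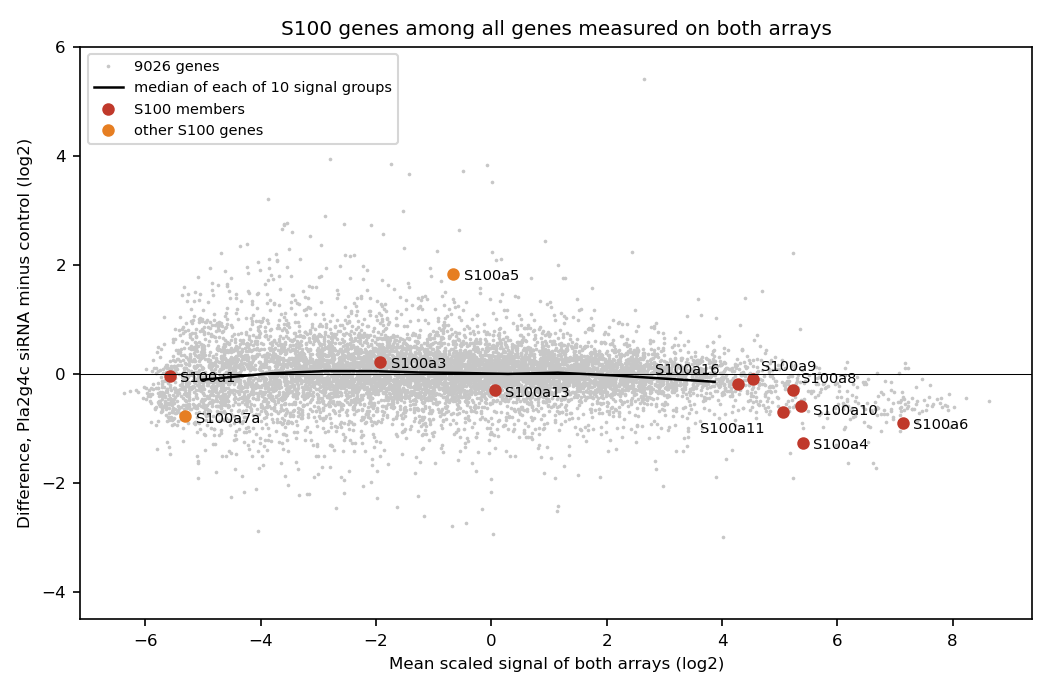
Difference between the arrays (vertical axis, log2) against the mean scaled signal of both arrays (horizontal axis, log2) for all 9026 measured genes in grey, the S100 members in red and other S100 genes in orange. The black line joins the medians of 10 equal groups by signal. S100a4 at -1.27 and S100a6 at -0.90 lie below most genes of like signal, and S100a5 at 1.84 above.

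The other S100 genes give the context of the family. Of 10 further S100 names 7 had a named probe, and 2 of them, S100a5 and S100a7a, were measured. S100a5, known mainly from olfactory neurons, was measured by 2 probes. The first gave 1.84 and 1.90 times the 75th percentile in the Pla2g4c siRNA array, against 0.487 and 0.489 times in the control array. The second gave 0.753 and 0.788 times in the Pla2g4c siRNA array, against 0.226 and 0.234 times in the control array. Both probes were clearly higher in the Pla2g4c siRNA array on every spot, by 1.94 and 1.74. The gene's difference was 1.84 ± 0.20, or 3.58-fold higher, and 99.4% of all measured genes had a lower one. It was at least 2-fold higher under all 10 alternatives, at 1.60 to 2.39.

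S100a7a, of the psoriasin group of skin antimicrobial proteins, was close to background on both arrays. Its first probe gave 0.0184 times the 75th percentile in the Pla2g4c siRNA array, against 0.0344 times in the control array, on 1 spot. Its second gave 0.0187 and 0.0215 times in the Pla2g4c siRNA array, against 0.0284 and 0.0353 times in the control array. Both probes were lower in the Pla2g4c siRNA array, with a gene difference of -0.78 ± 0.31 that shrank to -0.44 under normexp and to -0.23 with spike-in scaling. S100b, S100g, S100a7l2 and S100vp had no spot well above background. S100z had 2 of 2 spots well above background in the Pla2g4c siRNA array and 1 of 2 in the control array, at 0.0301 and 0.0320 times against 0.0133 and 0.0257 times, and was given no difference.

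Along chromosome 2 the table (GRCr8) places S100a4, S100a5, S100a6, S100a7a, S100a8 and S100a9 one after the other with no other gene listed between them. In that order the differences were -1.27, 1.84, -0.90, -0.78, -0.29 and -0.09. S100a5 thus lay between the 2 members with the lowest differences. On the other side, S100a1, S100a13, S100a16 and S100a3 lay between -0.30 and 0.22. S100a11 and S100a10, on the far side of the cluster, were -0.70 and -0.59.

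**Figure D3:**
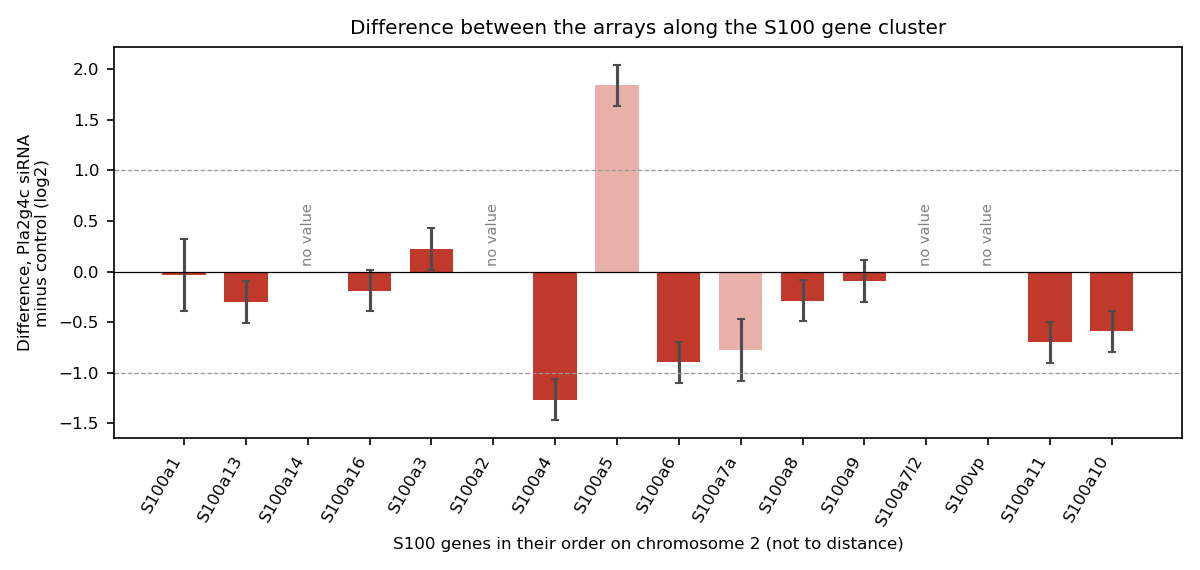
Difference between the arrays (bars, log2, vertical axis) for the S100a and S100vp genes in their order on chromosome 2, members in dark red and other S100 genes in pale red, with the software's error as error bars. Dashed lines mark 2-fold. The bar of S100a5 at 1.84 stands between S100a4 at -1.27 and S100a6 at -0.90, and genes without a measured probe are marked as having no value.

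Among 6 receptors reported for extracellular S100 proteins, mostly in human cells, 5 were measured, with a median of 0.25. The sign of this median depended on the filter, since it was -0.14 with no filter on dim probes. Of the 5, 1 was 2-fold or more higher and 0 were 2-fold or more lower. That 1 was Alcam, an adhesion molecule of the immunoglobulin superfamily, at 1.40 ± 0.21 (2.63-fold), and it stayed at least 2-fold higher under the 9 alternatives that measured it. Tlr4, a receptor of innate immunity that binds calprotectin, differed by 0.31 ± 0.21, and Nptn by 0.25 ± 0.20, or -0.14 with its dim probe let in. Bsg differed by -0.13 ± 0.20, and was 0.05 with quantile normalization, 0.07 with cyclic loess and 0.42 with spike-in scaling. Ager, the receptor for advanced glycation end products (RAGE), was lowest at -0.22 ± 0.28, with 0.33 under spike-in scaling. Mcam had no spot well above background.

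Of 11 intracellular partners 10 had a named probe and were measured, with a median of -0.22, and 0 of them differed 2-fold in either direction. Anxa2, the partner of S100a10, differed by -0.33 ± 0.20 and Anxa1, that of S100a11, by -0.31 ± 0.20. Both changed sign under other scalings. Anxa2 was 0.22 with quantile normalization, 0.07 with cyclic loess and 0.21 with spike-in RNAs, and Anxa1 was 0.09 with quantile normalization and 0.24 with spike-in RNAs. Anxa6 was lowest at -0.98 ± 0.20, and Anxa5, another annexin, highest at 0.50 ± 0.20. Myh9, the myosin heavy chain that S100a4 binds, differed by -0.17 ± 0.20, with 0.37 under spike-in scaling. Cacybp, the calcyclin-binding protein, differed by 0.27 ± 0.20. The median of these partners was 0.01 after quantile normalization and 0.33 with spike-in scaling.

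Of 22 calcium-binding proteins of other EF-hand families 21 had a named probe and 19 were measured, with a median of 0.06. In this list 1 gene was higher by 2-fold or more and 1 was lower by 2-fold or more. Parvalbumin, Pvalb, was 3.30-fold higher (1.72 ± 0.24) at low signal, with 0.76 under normexp. Calml3, a calmodulin-like protein of stratified epithelia, was 2.85-fold lower (-1.51 ± 0.21), with -0.97 under spike-in scaling. The S100 fused-type proteins, such as filaggrin, had no named probe and are not analysed here.

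Markers of cell state also differed between the arrays. Of 11 squamous epithelial markers 7 had a named probe and 6 were measured. All 6 were below 0 and 5 were at least 2-fold lower, with a median of -1.70, or -1.16 with spike-in scaling. The keratins Krt13 (-2.93 ± 0.20) and Krt5 (-1.72 ± 0.20) were among them, and Krt14 was highest at -0.97 ± 0.20. The summed level of the list was 235 times the 75th percentile in the Pla2g4c siRNA array and 539 times in the control array. Krt14 and Krt5 made up most of this sum. Before scaling their mean signals were 194729 and 62386 in the Pla2g4c siRNA array, against 293914 and 158181 in the control array. Those of Krt13 were 407 in the Pla2g4c siRNA array and 2399 in the control array. Krt4 had no value on both arrays, with 1 of 2 spots well above background in the control array only. Of 9 mesenchymal markers 3 were measured: Vim at -0.76 ± 0.20, Col1a2 at -0.26 ± 0.28 and Col1a1 at 0.13 ± 0.21, with a median of -0.26 that spike-in scaling turned to 0.29. Their list summed to 0.610 times in the Pla2g4c siRNA array and 0.753 times in the control array, and Dcn, Lum, Col3a1, Thy1 and Pdgfrb had no spot well above background. Pdgfra, a growth factor receptor in the same list, had 9 of 9 spots well above background in the Pla2g4c siRNA array and 1 of 9 in the control array, and was given no difference. The part of these marker differences in the S100 values was not tested.

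**Figure D4:**
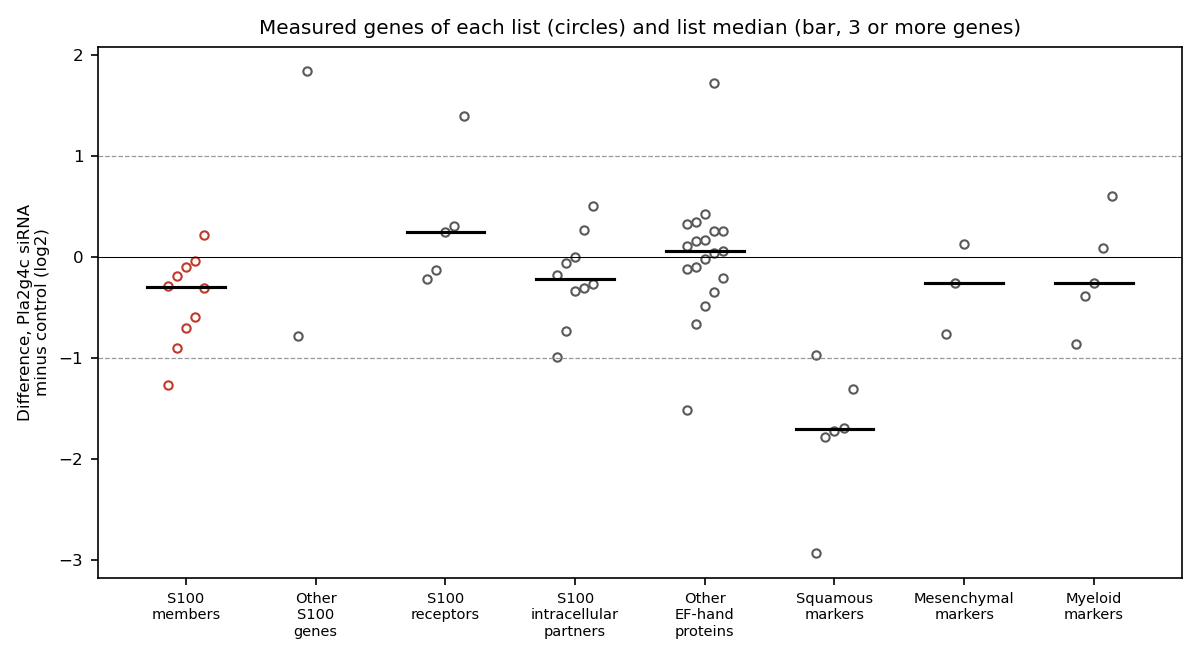
Difference between the arrays (vertical axis, log2) of every measured gene in each list (circles) with the list median (bar, lists of 3 or more). The S100 members spread between -1.27 and 0.22, the squamous markers lie lowest with a median of -1.70, and dashed lines mark 2-fold.

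Pla2g4c itself had no probe under the RefSeq names, so the knockdown was not analysed here and the labels have no such check. Of gene spots 63.1% were well above background in the Pla2g4c siRNA array and 61.9% in the control array, and 0 gene spots were saturated. The directions above are relative to the bulk of the genes, because spike-in scaling put the median of all genes at 0.54 and the deposited values put it at 0.12. The order of the members kept S100a4 lowest in the 5 settings other than the 75th percentile that change the scaling or background correction and are drawn in the plot of settings.

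**Figure D5:**
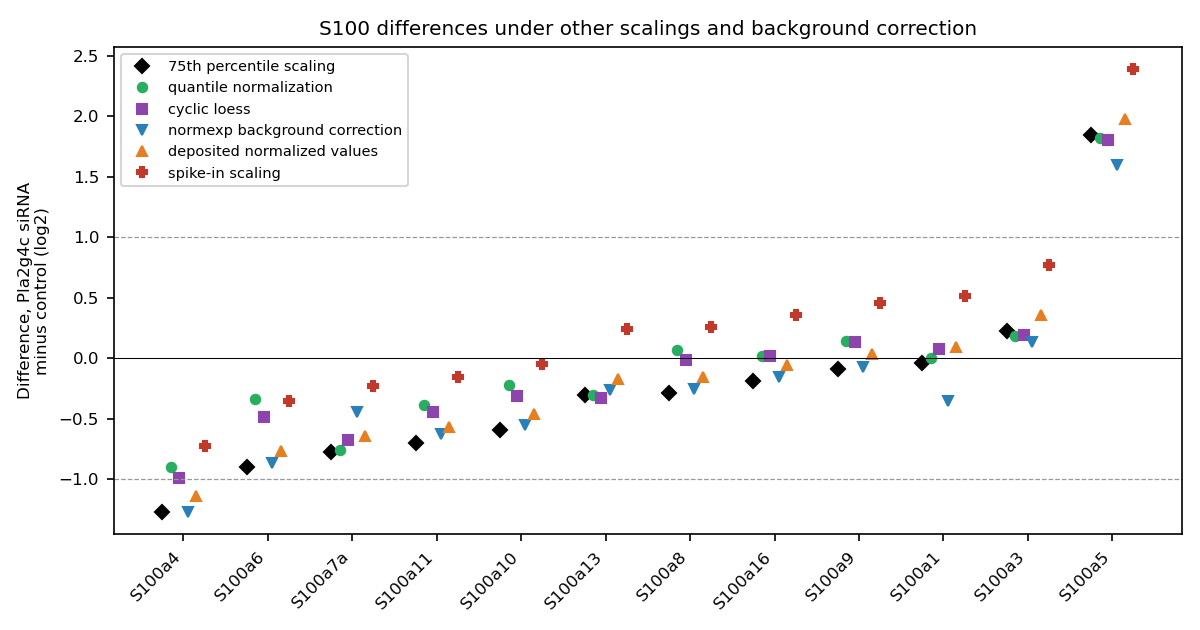
Difference between the arrays (vertical axis, log2) of each measured S100 gene under the 75th percentile scaling and 5 other settings, with 2-fold marked by dashed lines. S100a4 ranges between -1.27 and -0.72 and S100a5 between 1.60 and 2.39, while S100a1, S100a8, S100a9, S100a13 and S100a16 lie on both sides of 0.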

How the data were processed

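The authors made the deposited scanner files, with 1 linear intensity per spot, in Agilent Feature Extraction, whose version is 10.10 per the submitters' processing notes and 10.10.1.1 in the file headers. Background subtraction and detrending were applied inside each array, per the file headers. The software's flags for outliers, saturation and background (0 or 1) were used as deposited. The authors' deposited table of normalized intensities is proportional to the processed signal, by a factor of 1.50 for Pla2g4c siRNA and 1.77 for the control, as computed from the values. Both arrays shared a slide.

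Here log2 of the processed signal was scaled to each array's 75th percentile over 58717 gene spots. Outlier spots were left out, spots of a probe averaged, and a probe was measured where every remaining spot was well above background on each array (16840 of 30367). A gene is the mean of its measured probes. Names came from RefSeq accessions (59.3% of probes). The ± is the software's signal error carried to log2, with a median of 0.20 over all genes. Precision is limited by having 2 arrays.

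With 1 array per group no test was made, and differences were counted at 2-fold and 1.5-fold. The rule was to name all members, every other S100 gene with a probe, and the 2-fold, highest and lowest members of 7 fixed lists. It was not followed in full, since of the squamous markers at least 2-fold lower only Krt13 and Krt5 were named. Other genes of those lists (Bsg, Nptn, Tlr4, Anxa1, Anxa2, Myh9, Cacybp and markers) were named for their role after their values were seen. The value of 1 list gene is not reported here. The members and lists were chosen with earlier results of these data known. Alternatives were normexp on the median signals (offset 50), median, quantile, cyclic loess and spike-in scaling (7 probes), the deposited values, the brightest probe, other filters, flagged spots kept and other thresholds. For a gene with 1 probe, measured and without flagged spots, the probe, filter and flag alternatives repeat the main value or give none. Steps were tested on simulated data. R 4.3.3, limma 3.58.1, Python 3.11.15, numpy 2.4.6, pandas 2.3.3 and matplotlib 3.10.9 were used.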

Additional observations from a re-analysis of the deposited data

How the results depend on the processing

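The count of members at least 2-fold lower, 1 of 10, was 0 under quantile normalization, cyclic loess, spike-in scaling and a 3-fold threshold, and 4 at a 1.5-fold threshold. With spike-in scaling the members' median was 0.25 in place of -0.29, beside 0.54 over all genes, and 4 members were below 0 in place of 9, beside 11.5% and 51% of all genes. Spike-in scaling, like median scaling and the deposited values, moved every gene by the same constant. The members' median minus the median of all genes was therefore -0.28 under each of them. Which constant is right was not tested. The cause of the change under quantile normalization and cyclic loess was not tested. The members' median kept its sign under the other 9 alternatives, at -0.45 to -0.11, and the count at least 2-fold higher was 0 throughout. The brightest probe, no filter on dim probes and flagged spots kept could only repeat the main median, because each member has 1 measured probe without flagged spots. S100a1 and S100a3 had no value where only probes above the median signal were used. No paired analysis was possible because each group has 1 array and the labels give no replicate numbers. Low signal limits S100a1, S100a7a and S100z.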
